A study of Mus musculus and Rattus norvegicus with 24 samples.

Results

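Hearts of cKO mice after 7 days of transverse aortic constriction (TAC) were set against hearts of ctrl mice after 3 days of TAC, which are 6 of the 24 samples of the series and 3 libraries a group. The series' title names the transcription factor ATF4, and ctrl and cKO in the sample titles and the design text were read as control and conditional knockout of Atf4. The comparison asks whether the late state of the knockout equals the early state of the control, as a delayed response would give, or differs in kind. Each state was also measured against its own sham-operated hearts: the late cKO response is cKO TAC 7 d over cKO sham, and the early ctrl response is ctrl TAC 3 d over ctrl sham, with 3 libraries in each group. The remaining heart groups, ctrl TAC 7 d and cKO TAC 3 d, also of 3 libraries each, show which step of the comparison a difference belongs to. Genotype and day change together in cKO TAC 7 d against ctrl TAC 3 d, so they cannot be told apart in that contrast alone. The labels name the tissue as mouse heart and give no Cre driver, age or sex for the animals, and they do not say whether replicates were separate animals. The p-values therefore measure the spread between these libraries, part of which may be technical. The heart samples also carry a characteristic named overexpression, at odds with their titles, and the titles set the groups. Of the 54532 genes in the deposited table, 15535 had enough counts to be tested.

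TAC places a band on the aorta, so that the left ventricle pumps against a raised pressure and its muscle cells enlarge. The early days of such a load bring division of non-muscle cells, matrix deposition, entry of immune cells and a return of fetal muscle genes, while genes of fatty acid burning and respiration fall. ATF4 is a basic leucine zipper transcription factor whose translation is favoured when the initiation factor eIF2 is phosphorylated. Its known targets supply amino acids, charge transfer RNAs and feed one-carbon units into purine and glutathione synthesis, and they often carry a C/EBP-ATF response element in their promoters.

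Total counts ran from 16136753 to 16646615 in cKO TAC 7 d and from 16689372 to 17816650 in ctrl TAC 3 d. The defining genes of ventricular muscle cells summed to 71336, 64946 and 77504 CPM (counts scaled to library size with TMM factors) in cKO TAC 7 d and to 76675, 84564 and 50436 CPM in ctrl TAC 3 d. One library of each group stood apart from its replicates. Replicate 2 of cKO TAC 7 d lay at 54.5 and replicate 3 of ctrl TAC 3 d at 87.7 on the leading principal component, against -43.0 to 39.5 for the other 16 hearts. Counts of mitochondrial genes made up 14.5% and 10.6% of these 2 libraries, against 17.5% to 23.0% elsewhere. This pair is called the 2 libraries that stand apart, and results of the direct contrast are given without it where it changes them. In another library, labelled ctrl sham replicate 3, Atf4 stood at 34.3 CPM and its neighbour Cacna1i at 381 counts, unlike the other 8 ctrl libraries. It enters the early ctrl response, in which 4225 genes were called with it and 2982 without it. Leaving it out, the early calls were 26 higher of 28 cell cycle genes, 18 higher of 18 collagens, 14 lower of 29 oxidative phosphorylation genes and 14 lower of 29 fatty acid genes, beside 26, 18, 18 and 21 with it.

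Atf4 (ENSMUSG00000042406, chr15:80255184-80257541 on the plus strand, GRCm38) was at 27.2, 31.3 and 27.0 CPM in cKO TAC 7 d and at 91.0, 80.3 and 84.9 CPM in ctrl TAC 3 d. The groups did not overlap, and the 2 libraries that stand apart lay with their groups. Its level fell by 1.58 ± 0.18 (SE) on the log2 scale in cKO TAC 7 d relative to ctrl TAC 3 d (edgeR quasi-likelihood test, adjusted p = 0.000306), or to 0.334 of the ctrl level. Against ctrl hearts of the same day, 70.5, 79.9 and 70.3 CPM, the change was -1.37 (adjusted p = 0.00423), and for ctrl TAC 7 d over ctrl TAC 3 d it was -0.21 (adjusted p = 0.438).

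Rps19bp1, which lies beside Atf4 and encodes a ribosomal protein binding partner, was at 3.25, 2.22 and 1.79 CPM in cKO TAC 7 d and at 9.32, 8.51 and 11.0 CPM in ctrl TAC 3 d. It fell with no overlap of the groups (log2 fold change -1.99 ± 0.29 SE, adjusted p = 0.00160). On the strand of Atf4, the calcium channel gene Cacna1i held 781, 1500 and 939 counts in cKO TAC 7 d and 0, 3 and 1 counts in ctrl TAC 3 d (adjusted p = 0.00224). No fold is given for it, because the ctrl libraries are at or near 0 and the fitted fold then depends on the prior count. Of the 8 tested genes around the locus 1 was called higher, Cacna1i, and 2 lower, Atf4 and Rps19bp1, beside 4.52% of all genes called in either direction in this contrast. Mief1, Mgat3, Tab1, Syngr1 and Grap2 were not called, at -0.42 to 0.20 log2.

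Across all genes the late cKO hearts and the early ctrl hearts differed at 702 of 15535 genes (4.52% called at an adjusted p under 0.05), of which 454 were higher (2.92%) and 248 lower (1.6%) in cKO TAC 7 d. An unadjusted p under 0.05 was reached by 3158 genes. The median log2 fold change was -0.02, and its quartiles were -0.25 and 0.20. For 10985 genes (70.7%) the 95% confidence interval of the fold change lay wholly inside a 2-fold change in either direction, and for 10695 without the 2 libraries that stand apart. For 38 genes it lay wholly beyond 2-fold, and the median distance from the fold change to either bound was 0.40 log2 units. Protein-coding genes made up 425 of the genes called higher and 244 of those called lower. Groups did not overlap in 694 of the 702 called genes and in 3208 of all 15535 (20.7%). The largest called rises and falls named below were picked from genes without overlap, so that trait is not a finding about them.

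Without the 2 libraries that stand apart the number called was 396, 225 higher and 171 lower. Without the cKO library alone it was 280 (192 higher, 88 lower), and without the ctrl library alone 1038 (510 higher, 528 lower). With total counts in place of TMM factors, the split of higher to lower calls was 249 to 227. When the model was fitted to only the 6 libraries of the comparison, 6 genes were called: Atf4, Hipk2, Ppara, Cacna1i, Klhdc7a and the gene model Gm10524. All other calls below thus rest on the spread estimated over the 18 hearts.

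Each state also differed from its own sham. In the late cKO response 3380 genes were called (21.8%), 1770 higher (11.4%) and 1610 lower (10.4%). In the early ctrl response 4225 were called (27.2%), 2305 higher (14.8%) and 1920 lower (12.4%). Counts of list members below stand beside these shares of all genes, and in the direct contrast beside 4.52%. Between cKO sham and ctrl sham edgeR called 3 genes (0.0193%). The 2 responses share no library. They had 2020 genes called in the same direction, which is 59.8% of the late calls and 47.8% of the early calls, and 12 genes called in opposite directions. Without the 2 libraries that stand apart, 1489 genes were called in the same direction in both. Of the genes called late, 93.5% had the same sign in the early response, and of those called early, 94.3% had the same sign late. Over all tested genes, which are not independent of each other, the Pearson correlation of the log2 fold changes was 0.77 and Spearman's 0.70, given here as descriptions.

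**Figure D1:**
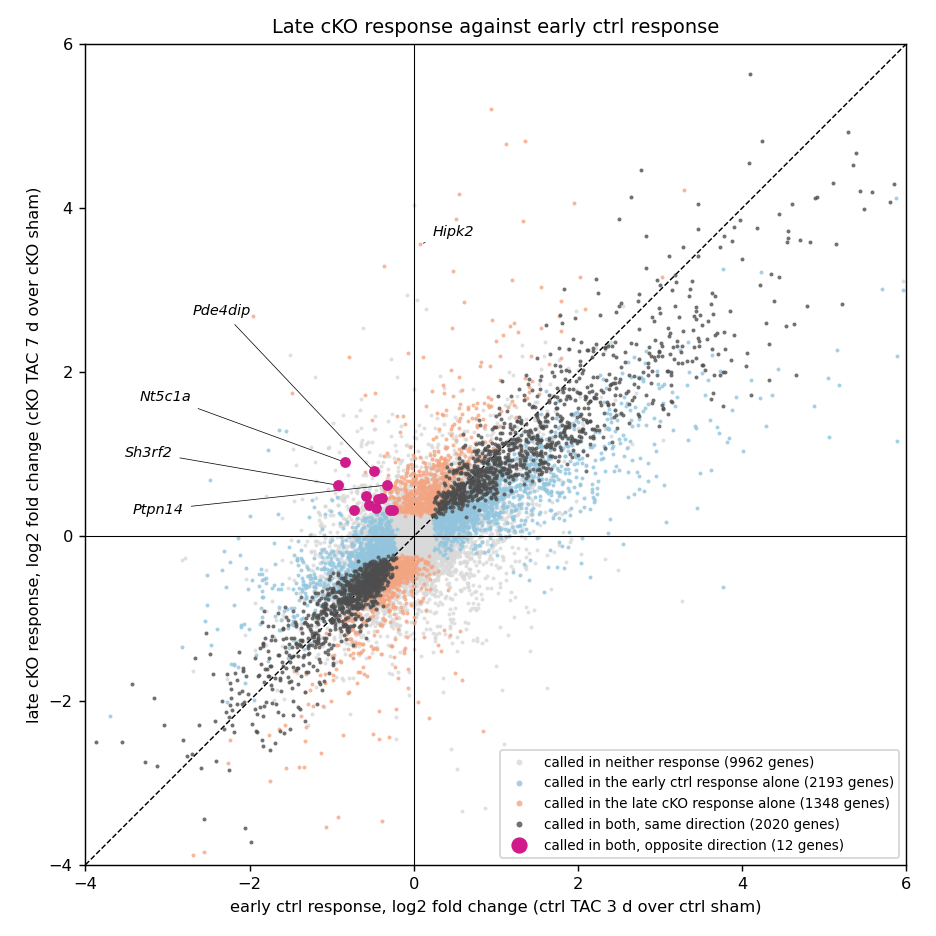
Late cKO response (vertical axis, log2 fold change of cKO TAC 7 d over cKO sham) against early ctrl response (horizontal axis, log2 fold change of ctrl TAC 3 d over ctrl sham), 1 point a gene, for 15511 of the 15535 genes tested, with 24 outside the axes. Most genes called in both responses (2020, dark) lie along the dashed line of equal change, and the 12 called in opposite directions lie in the upper left.

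The late response was the smaller of the pair among genes chosen on the early one, as such a choice tends to give. The 2305 genes called higher early had a median log2 fold change of 0.67 in the late response and 1.04 in the early one. The 1920 genes called lower early had medians of -0.47 late and -0.64 early. Chosen on the late response, the 1770 higher genes had medians of 0.83 late and 0.75 early, and the 1610 lower genes -0.63 late and -0.52 early. The direct contrast shares its ctrl TAC 3 d libraries with the early response and its cKO TAC 7 d libraries with the late one, so its calls are not set against the calls of either.

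The test of the difference between the responses, (cKO TAC 7 d minus cKO sham) minus (ctrl TAC 3 d minus ctrl sham), called 11 of 15535 genes (0.0708%), all higher in the late cKO response, and 1480 genes had an unadjusted p under 0.05. The interval of this difference lay inside 2-fold for 9187 genes (59.1%) and wholly beyond it for 18. The largest called difference was Hipk2, a nuclear kinase that acts on p53 and other transcription factors, at 3.48 ± 0.51 (SE) on the log2 scale (adjusted p = 0.0172). Its late response was 3.56 and its early response 0.07. Day and genotype change together between the responses, so this test cannot tell them apart.

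Other called genes had smaller differences. Sh3rf2, which encodes a protein with SH3 and RING domains, differed by 1.54 ± 0.25 (adjusted p = 0.0256), with a late response of 0.62 and an early one of -0.92. Sptb, the beta spectrin of the membrane skeleton, differed by 1.05 ± 0.16 (adjusted p = 0.0178), at 0.32 late and -0.73 early. Ptpn14, a tyrosine phosphatase that restrains the growth regulator YAP, differed by 0.95 ± 0.13 (adjusted p = 0.0141), at 0.63 late and -0.32 early. Another 6 genes lay between 0.69 and 0.80: the ubiquitin ligase genes Hectd4 and Ubr4, the HIF hydroxylase gene Hif1an, and Usp54, Rad54l2 and Pdk1, of which the last 3 were named after their values were seen.

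These 11 genes were long, with quartiles of length of 8308 and 12780 bases against a median of 4043 for all tested genes. After each library's trend with gene length was removed, the same test called 0 genes with edgeR, with 1198 at an unadjusted p under 0.05. The lowest adjusted p was then 0.0514. With any one of cKO TAC 7 d replicate 3, cKO sham replicate 1 or 2, ctrl TAC 3 d replicate 1, or ctrl sham replicate 2 or 3 left out, edgeR also called 0 genes, with 1149 to 1580 at an unadjusted p under 0.05. It called 5 without both libraries that stand apart. With all libraries, DESeq2 called 127 genes and limma with voom and library weights 319, and each of those sets held the 11.

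All 12 genes called in opposite directions were lower in ctrl TAC 3 d and higher in cKO TAC 7 d than in their own shams. They included Pde4dip, Ppp1r12b, Sptb, Prpf8, Ptpn14, Hectd4, Synrg, Sh3rf2, Lrch3 and Nt5c1a, named after their values were seen. Pde4dip, an anchor of phosphodiesterase at the Golgi and sarcomere also called myomegalin, was at 0.80 late (adjusted p = 0.00729) and -0.49 early (adjusted p = 0.0492). Nt5c1a, a muscle nucleotidase that makes adenosine from AMP, was at 0.90 late (adjusted p = 0.0290) and -0.84 early (adjusted p = 0.0401). Prpf8, the largest core protein of the spliceosome, was at 0.32 late (adjusted p = 0.0173) and -0.25 early (adjusted p = 0.0451). Some of these calls lay near the threshold, among them that of Sptb late (edgeR, adjusted p = 0.0488). Sptb, Ptpn14, Hectd4 and Sh3rf2 were also called by the test of the difference, and those calls were lost with the length trend removed. Nt5c1a, as given below, was also higher in ctrl TAC 7 d than in ctrl TAC 3 d. The 12 opposite calls are those of the main fit, without a correction for gene length. Spearman's correlation of the fold change with gene length was 0.20 in the late response and 0.00 in the early one.

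Among the genes of ATF4's amino acid pathways the 2 states differed at a few enzymes. Cytosolic aminoacyl-tRNA synthetases load amino acids onto transfer RNAs. Of 20 such genes tested, 4 fell in cKO TAC 7 d relative to ctrl TAC 3 d. The 4 were Cars, Aars, Vars and Yars, beside 1.6% of all genes called lower. None of the 20 was called higher, and 19 had an interval inside 2-fold. Their median was -0.03, beside -0.02 for all genes, and the same counts, 0 higher and 4 lower, were found without the 2 libraries that stand apart, with 2 lower without cKO TAC 7 d replicate 3. In the late cKO response 2 of the 20 were called higher, beside 11.4% of all genes. In the early ctrl response 9 were called higher and 1 lower, beside 14.8% and 12.4% of all genes. With single libraries left out, the late rises numbered 1 or 2 and the early rises 5 to 9, with 5 without the doubted ctrl sham replicate 3 and 6 without ctrl sham replicate 2.

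The promoters of 2 of these pathway genes are shown because they carry the ATF4 core motif, written here as TGATGNAA and searched on both strands. The 300 bases run from 250 before to 50 after the start in RefSeq (GRCm38.p6), each printed in the direction of the gene, with matches in capitals. Aars lies on the plus strand, chr8:111033592-111033891, and both of its matches are on the other strand. Asns, asparagine synthetase, lies on the minus strand, chr6:7693160-7693459, and its match is in the direction of the gene.
Aars: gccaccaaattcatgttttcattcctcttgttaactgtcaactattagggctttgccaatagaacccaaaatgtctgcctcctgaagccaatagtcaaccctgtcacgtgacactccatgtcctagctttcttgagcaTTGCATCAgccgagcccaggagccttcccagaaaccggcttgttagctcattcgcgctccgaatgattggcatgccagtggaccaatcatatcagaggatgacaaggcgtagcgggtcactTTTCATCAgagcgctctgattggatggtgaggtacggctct
Asns: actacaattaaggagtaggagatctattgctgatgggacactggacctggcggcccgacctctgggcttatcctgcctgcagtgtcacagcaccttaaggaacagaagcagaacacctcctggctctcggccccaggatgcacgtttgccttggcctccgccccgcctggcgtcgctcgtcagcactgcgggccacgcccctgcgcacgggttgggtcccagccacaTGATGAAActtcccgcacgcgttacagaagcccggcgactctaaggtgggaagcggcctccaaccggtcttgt
The motif occurred in 3.97% of all 32851 promoters of this length, and 4.51% of the 27025 genes they belong to had a match in at least 1 promoter. It was found for 5 of 12 synthetase genes with a promoter in the table (Aars, Gars, Iars, Tars and Yars), for 3 of 16 genes of amino acid and one-carbon synthesis (Asns, Pycr1 and Got1), for 1 of 5 amino acid transporters and for 5 of 12 regulators of the integrated stress response. Mthfd2, Psat1 and Aldh18a1, of the synthesis list, had promoters in the table without a match. Cars, Vars and Slc38a1 had no promoter there and were not searched. A match is a description of these letters and not evidence of binding.

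Cars, cysteinyl-tRNA synthetase, was at 14.1, 12.1 and 13.0 CPM in cKO TAC 7 d and at 23.1, 22.4 and 23.1 CPM in ctrl TAC 3 d (log2 fold change -0.80 ± 0.10 SE, adjusted p = 0.000671). The groups were far apart relative to their spread, and ctrl TAC 7 d, at 22.7, 23.8 and 22.2 CPM, lay with ctrl TAC 3 d. At 7 days the genotypes differed by -0.81 (adjusted p = 0.00423). Aars, alanyl-tRNA synthetase, was at 63.3, 65.7 and 66.2 CPM in cKO TAC 7 d and at 81.3, 90.4 and 92.5 CPM in ctrl TAC 3 d (log2 fold change -0.44 ± 0.09 SE, adjusted p = 0.0137), again with no overlap. Its genotype difference at 7 days was -0.51 (adjusted p = 0.0312). Vars, valyl-tRNA synthetase, changed by -0.36 (adjusted p = 0.0154), of which -0.33 lay between ctrl TAC 7 d and ctrl TAC 3 d (adjusted p = 0.0122) and -0.02 between the genotypes at 7 days. Its call was lost without cKO TAC 7 d replicate 3 (adjusted p = 0.0569; 0.000116 to 0.208 over 16 alternative settings).

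In amino acid and one-carbon synthesis, edgeR called 1 of 19 tested genes, Mthfd2, beside 4.52% of all genes. An unadjusted p under 0.05 was reached by 6 of the 19, while DESeq2 called 2 and limma voom 3. The median of the list was -0.27 (-0.13 without the 2 libraries). Mthfd2, the mitochondrial folate enzyme that releases one-carbon units, was at 3.52, 2.86 and 2.99 CPM in cKO TAC 7 d and at 6.37, 6.05 and 12.6 CPM in ctrl TAC 3 d (log2 fold change -1.42 ± 0.25 SE, adjusted p = 0.00495). The groups did not overlap, although ctrl TAC 3 d replicate 3 stood well above its replicates. Without both libraries the fold was -0.96 (adjusted p = 0.0341), and the adjusted p ran from 3.64e-05 to 0.161 over 16 alternative settings. Mthfd2 rose in both responses, by 1.15 late and 2.42 early. Asns was at 3.58, 1.93 and 3.17 CPM in cKO TAC 7 d and at 6.31, 4.53 and 4.40 CPM in ctrl TAC 3 d, and did not pass the test (log2 fold change -0.81 ± 0.24 SE, adjusted p = 0.0650).

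Other enzymes of the same pathways showed no difference called by edgeR between the 2 states. Psat1, of serine synthesis, was at 1.22 in the late response and 1.84 in the early one, both called, with a direct fold of -0.47 (adjusted p = 0.300). Pycr1, of proline synthesis, was at 1.60 late and 2.28 early, both called, with a direct fold of -0.67 (adjusted p = 0.389). Phgdh, the entry enzyme of serine synthesis, was at 0.78 (adjusted p = 0.280) late and 2.21 (adjusted p = 0.00426) early. The 95% intervals of the direct folds ran from -1.0 to 0.05 for Psat1, -1.56 to 0.21 for Pycr1 and -2.24 to -0.31 for Phgdh, so likeness within 2-fold was not shown for these 3.

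Of 9 tested amino acid transporters 1 was called, beside 4.52% of all genes. The called gene was Slc38a1, a sodium-coupled importer of glutamine and other neutral amino acids. It was at 36.8, 40.3 and 31.3 CPM in cKO TAC 7 d and at 18.6, 16.9 and 16.1 CPM in ctrl TAC 3 d and rose with no overlap of the groups (log2 fold change 1.07 ± 0.17 SE, adjusted p = 0.00257). In ctrl TAC 7 d it was at 13.5, 12.9 and 12.6 CPM, and the genotypes differed by 1.47 (adjusted p = 0.00304) on that day. Slc7a5, a large neutral amino acid exchanger, was called higher in both responses (0.81 late, 1.08 early), with a direct fold of -0.05 (adjusted p = 0.927) and an interval of -0.57 to 0.46. Its late call was lost without cKO TAC 7 d replicate 2. In that fit edgeR called 0 of the 9 transporters late, beside 5 with all libraries. Of 13 tested regulators of the integrated stress response, edgeR called 0 in the direct contrast (1 at an unadjusted p under 0.05, 0 with DESeq2 and 1 with limma voom). The lowest p in that list belonged to Atf5, a factor related to ATF4, at -0.40 (adjusted p = 0.131).

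**Figure D2:**
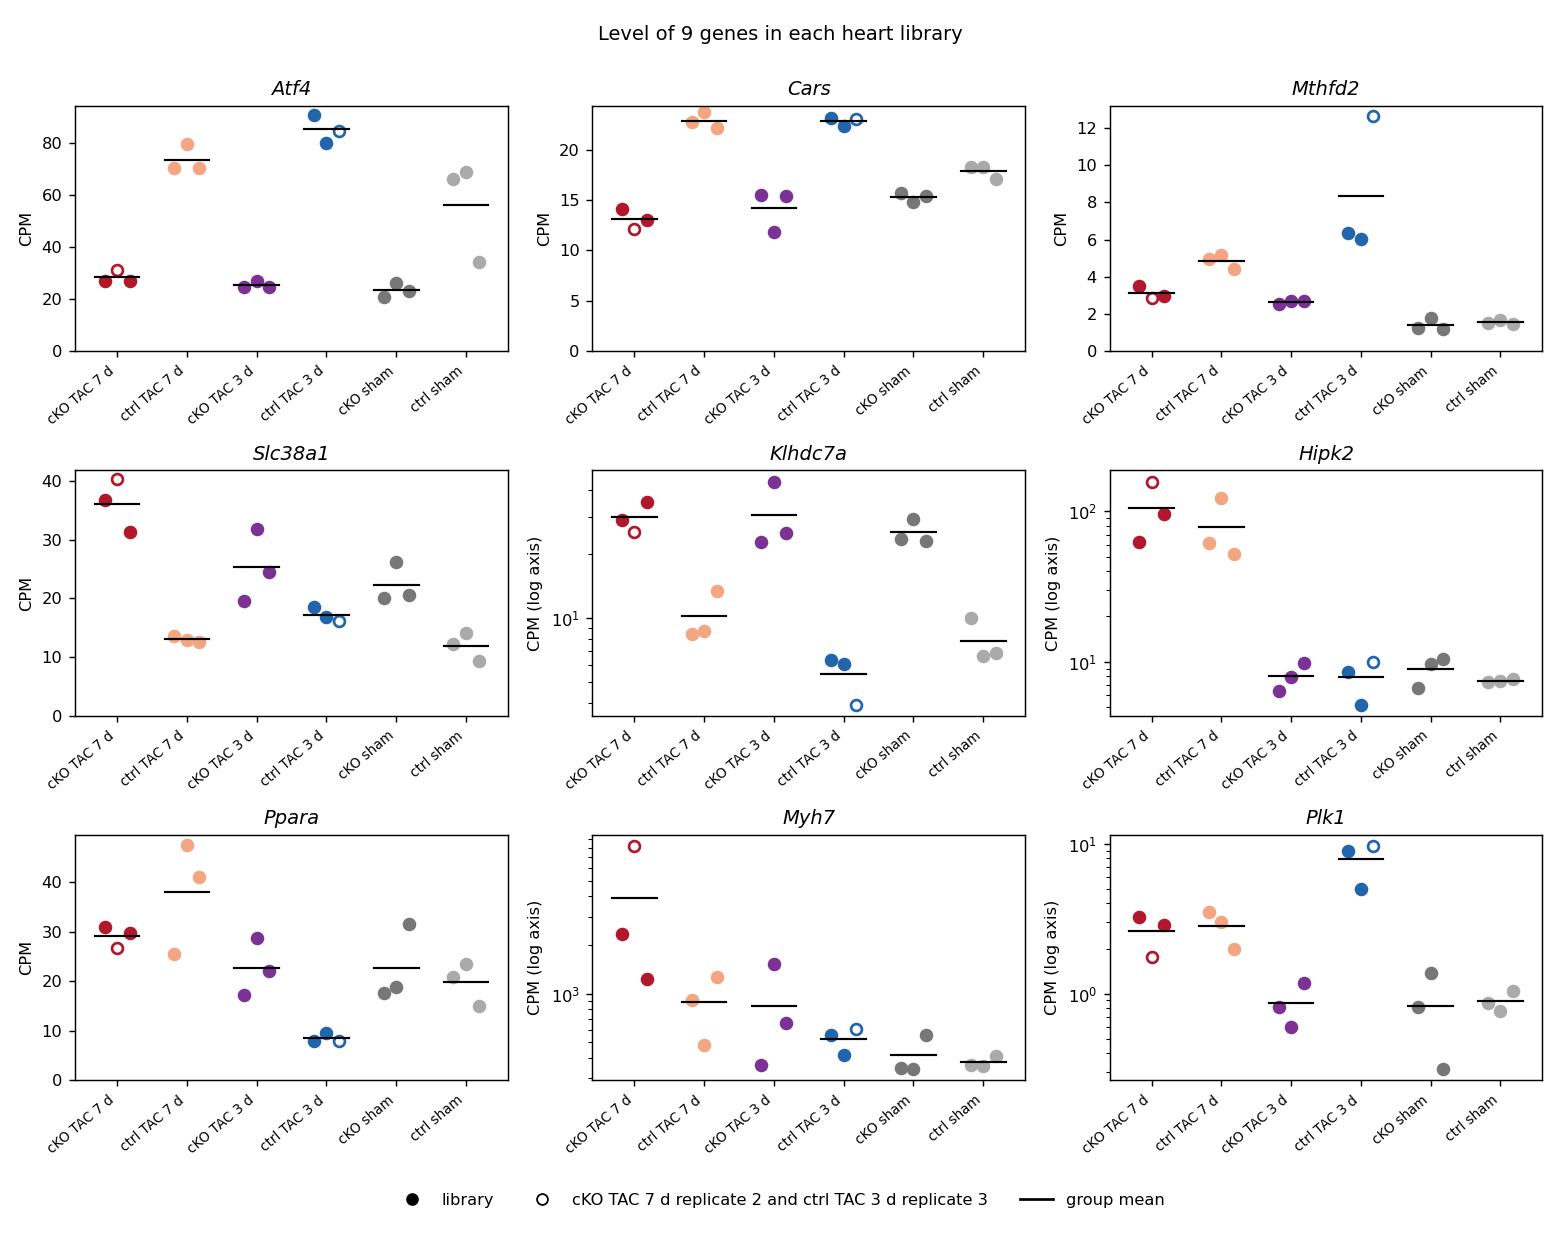
Level of 9 genes in each of the 18 heart libraries (vertical axes, CPM, on a log axis for Klhdc7a, Hipk2, Myh7 and Plk1), with 1 point a library, a line at the group mean and open points for the 2 libraries that stand apart, 1 of cKO TAC 7 d and 1 of ctrl TAC 3 d. Atf4 and Cars separate cKO from ctrl TAC hearts at both days, Hipk2 is high in both 7 d groups (52.3 to 158 CPM), and Ppara is lowest in ctrl TAC 3 d (7.90 to 9.60 CPM).

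Klhdc7a, a little studied gene with kelch repeats, was at 28.9, 25.3 and 35.2 CPM in cKO TAC 7 d and at 6.37, 6.11 and 3.92 CPM in ctrl TAC 3 d (log2 fold change 2.45 ± 0.27 SE, adjusted p = 0.000204). The lowest cKO library lay well above the highest ctrl library, and the fold without the 2 libraries was 2.33 (adjusted p = 0.00158), with adjusted p-values of 8.13e-22 to 0.0215 over 16 alternative settings. In ctrl TAC 7 d it was at 8.46, 8.75 and 13.4 CPM (1.55 between the genotypes at 7 days, adjusted p = 0.0184), and in sham hearts it was at 23.6, 29.3 and 23.2 CPM in cKO and 10.0, 6.66 and 6.85 CPM in ctrl. In the difference of the responses, which subtracts the shams, it was not called (0.76, adjusted p = 0.543).

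Hipk2 was high in both 7 d groups. It was at 62.1, 158 and 96.3 CPM in cKO TAC 7 d, 61.8, 123 and 52.3 CPM in ctrl TAC 7 d and 8.53, 5.18 and 9.90 CPM in ctrl TAC 3 d. All libraries of both 7 d groups lay above all libraries of ctrl TAC 3 d. The direct fold was 3.74 ± 0.37 (SE, adjusted p = 7.61e-05), that of ctrl TAC 7 d over ctrl TAC 3 d was 3.33 (adjusted p = 0.000143), and that of cKO over ctrl at 7 days was 0.41 (adjusted p = 0.529). Its table entry overlaps Tbxas1 by 762 bases on the other strand, and Tbxas1 was at 3.91 CPM in cKO TAC 7 d and 4.46 CPM in ctrl TAC 3 d.

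Of 14 tested energy regulators, 2 rose in cKO TAC 7 d relative to ctrl TAC 3 d and none was called lower, beside 2.92% of all genes called higher and 1.6% lower, with a list median of 0.13. Ppara, a lipid-sensing receptor that activates genes of fatty acid burning, was at 31.1, 26.7 and 29.7 CPM in cKO TAC 7 d and at 7.90, 9.60 and 8.04 CPM in ctrl TAC 3 d, with no overlap (log2 fold change 1.78 ± 0.26 SE, adjusted p = 0.00160). It fell early (-1.22, adjusted p = 0.00334) and was not called late (0.36, adjusted p = 0.309). In ctrl TAC 7 d it was at 25.5, 47.6 and 41.1 CPM, higher than in ctrl TAC 3 d (2.16, adjusted p = 0.000291) and not called apart from cKO TAC 7 d (-0.38, adjusted p = 0.437).

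Ppargc1b, a coactivator of mitochondrial genes, was at 19.7, 17.7 and 23.1 CPM in cKO TAC 7 d and at 12.2, 11.9 and 7.22 CPM in ctrl TAC 3 d (log2 fold change 0.95 ± 0.21 SE, adjusted p = 0.0182). Without both libraries it was 0.80 (adjusted p = 0.0632), no longer called, with adjusted p-values of 6.48e-05 to 0.176 over 16 alternative settings. Nt5c1a was at 11.4, 7.53 and 11.8 CPM in cKO TAC 7 d and at 3.58, 2.84 and 3.78 CPM in ctrl TAC 3 d (log2 fold change 1.59 ± 0.28 SE, adjusted p = 0.00545), with no overlap. In ctrl hearts alone, TAC 7 d over TAC 3 d, it rose by 2.19 (adjusted p = 0.000488). Between ctrl TAC 7 d and ctrl TAC 3 d 2293 genes were called (14.8%). Between cKO and ctrl at 7 days 40 genes were called (0.257%), and 2680 had an unadjusted p under 0.05. Through the other middle group, 3037 genes were called for cKO TAC 7 d over cKO TAC 3 d (19.5%) and 2655 for cKO TAC 3 d over ctrl TAC 3 d (17.1%). Each of these steps shares libraries with the direct contrast.

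The genes by which failing hearts are usually recognised were raised in both states. Of 14 tested genes of cardiac stress and the fetal programme, 14 rose in the late cKO response and 12 in the early ctrl response, with medians of 2.31 late and 1.85 early. In the direct contrast 1 was called, Myh7, and the median was 0.45 (0.18 without the 2 libraries, with no member called). Myh7, the slow myosin heavy chain of the fetal and failing ventricle, was at 2344, 8171 and 1239 CPM in cKO TAC 7 d and at 556, 418 and 606 CPM in ctrl TAC 3 d (log2 fold change 2.90 ± 0.60 SE, adjusted p = 0.0123). The groups did not overlap, but cKO TAC 7 d replicate 2 was far above its replicates. Without that library the adjusted p was 0.0724, and without both libraries the fold was 1.85 (adjusted p = 0.0729), beside adjusted p-values of 3.83e-16 to 0.169 over 16 alternative settings. Whether counting used strand is not given in the sources used here, and Myh7 overlaps the antisense genes Mhrt and Gm31251.

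The natriuretic peptide genes passed the test in neither direction. Nppa, of atrial natriuretic peptide, was at 2626, 4030 and 1538 CPM in cKO TAC 7 d and at 1527, 1009 and 3119 CPM in ctrl TAC 3 d, with groups that overlap (log2 fold change 0.53 ± 0.56 SE, adjusted p = 0.627). At 501, 228 and 218 CPM in ctrl TAC 7 d it had fallen relative to ctrl TAC 3 d (-2.58, adjusted p = 0.0114) and was lower than in cKO TAC 7 d (3.11 for cKO over ctrl, adjusted p = 0.0435). Nppb, of brain natriuretic peptide, differed by 0.21 (adjusted p = 0.825) with an interval of -0.73 to 1.15. Acta1, skeletal actin, differed by -0.02 (adjusted p = 0.984) with an interval of -0.86 to 0.83. Gdf15, a stress hormone, was at 20.9, 54.2 and 11.2 CPM in cKO TAC 7 d and at 3.64, 7.31 and 26.9 CPM in ctrl TAC 3 d, with a direct fold of 1.18 (adjusted p = 0.366).

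Channels and transporters of the muscle membrane held calls in both directions. Of 22 tested genes of calcium handling and ion channels, 5 rose and 2 fell, beside 2.92% of all genes called higher and 1.6% lower, with a median of 0.06. Without the 2 libraries that stand apart 2 rose and 2 fell, and 1 to 4 rose with single libraries left out. The same genes had 3 called higher and 9 lower in the late cKO response, and 0 higher and 12 lower in the early ctrl response. The late falls numbered 4 without cKO TAC 7 d replicate 2 and 5 without cKO sham replicate 2, and the early falls 8 without ctrl TAC 3 d replicate 3. Slc8a1, the sodium-calcium exchanger that removes calcium after each beat, was at 239, 426 and 358 CPM in cKO TAC 7 d and at 139, 120.1 and 199 CPM in ctrl TAC 3 d (log2 fold change 1.16 ± 0.26 SE, adjusted p = 0.0177). Its call was lost without 4 of the 6 single libraries, with the highest such adjusted p, 0.0899, without cKO TAC 7 d replicate 2, and adjusted p-values of 7.32e-08 to 0.166 over 16 alternative settings. Ryr2, the calcium release channel, and Cacna1c, the L-type calcium channel, were higher by 0.58 and 0.42, and the call of Ryr2 was kept in 1 of the 6 fits without a single library. These are long genes, and with the length trend removed Cacna1c stood at 0.08.

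Hcn4, a pacemaker channel, was at 5.67, 1.87 and 3.71 CPM in cKO TAC 7 d and at 10.6, 9.87 and 8.08 CPM in ctrl TAC 3 d and fell (log2 fold change -1.34 ± 0.30 SE, adjusted p = 0.0190). Kcnd2, a channel of the transient outward current, was at 5.73, 3.50 and 5.98 CPM in cKO TAC 7 d and at 14.6, 15.1 and 8.47 CPM in ctrl TAC 3 d and fell (log2 fold change -1.32 ± 0.32 SE, adjusted p = 0.0289), with no overlap. It was also lower in cKO than in ctrl hearts at 7 days (-1.96, adjusted p = 0.0180). The call of Hcn4 was lost without 3 of the 6 single libraries, with the highest adjusted p, 0.0646, without cKO TAC 7 d replicate 2.

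Genes of dividing cells rose in both states. Of 28 tested cell cycle genes, 22 were called higher and 1 lower in the late cKO response (median 1.91), and 26 higher and 1 lower in the early ctrl response (median 2.94). The late rises numbered 14 to 23 and the early rises 25 or 26 with single libraries left out, the lowest late count being without cKO sham replicate 3. In the direct contrast 6 fell by edgeR's test and none was called higher (11 called with DESeq2, 24 with limma voom and 23 at an unadjusted p under 0.05). All 28 had a negative fold, the median was -1.11, and 2 had an interval inside 2-fold. Without the 2 libraries 1 was called lower and the median was -0.77, and the 6 calls were lost when either cKO TAC 7 d replicate 2 or, alone, ctrl TAC 3 d replicate 1 was left out, with 1 left without cKO TAC 7 d replicate 3 and 3 without replicate 1 of that group. In the difference of the responses edgeR called 0 of the 28 (5 at an unadjusted p under 0.05, 0 with DESeq2 and 2 with limma voom). The summed level of the list was 297, 138 and 283 CPM in cKO TAC 7 d and 599, 345 and 449 CPM in ctrl TAC 3 d, and it was lowest in cKO TAC 7 d replicate 2.

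Plk1, a kinase of mitotic entry, was at 3.25, 1.75 and 2.87 CPM in cKO TAC 7 d and at 9.04, 5.02 and 9.66 CPM in ctrl TAC 3 d (log2 fold change -1.59 ± 0.37 SE, adjusted p = 0.0217), with no overlap. In ctrl TAC 7 d it was at 3.51, 3.00 and 1.98 CPM (-0.11 for cKO over ctrl at 7 days, adjusted p = 0.920). Without both libraries its fold was -1.22 (adjusted p = 0.130), beside adjusted p-values of 0.000245 to 0.225 over 16 alternative settings. Pcna, the clamp of DNA replication, was at 35.9, 24.6 and 32.6 CPM in cKO TAC 7 d and at 55.8, 44.2 and 38.0 CPM in ctrl TAC 3 d (log2 fold change -0.57 ± 0.14 SE, adjusted p = 0.0281), and Rrm1, a subunit of ribonucleotide reductase, changed by -0.61 (adjusted p = 0.0376). With single libraries left out the call of Pcna was kept in 3 of 6 fits and that of Rrm1 in 2 of 6, with the highest adjusted p, 0.110 for Pcna and 0.142 for Rrm1, without cKO TAC 7 d replicate 2. Racgap1, a protein of cell division outside that list, was at 9.03, 3.38 and 8.20 CPM in cKO TAC 7 d and at 21.1, 14.7 and 19.5 CPM in ctrl TAC 3 d (log2 fold change -1.42 ± 0.32 SE, adjusted p = 0.0184), a call kept in 4 of 6 fits without a single library. Mki67 and Top2a, the usual proliferation markers, did not pass at -1.13 (adjusted p = 0.182) and -1.03 (adjusted p = 0.290).

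Matrix genes rose in both states in most of their members. Of 18 tested collagen genes, 16 rose late (median 1.72) and 18 rose early (median 2.80). The late count was 10 without cKO TAC 7 d replicate 2 or cKO sham replicate 3. In the direct contrast edgeR called 0 (6 at an unadjusted p under 0.05, 1 with DESeq2 and 1 with limma voom). The direct median was -0.63 over all libraries, with 5 of 18 inside 2-fold, and -0.08 without the 2 that stand apart, with 11 inside 2-fold. The collagens summed to 7776, 8019 and 5985 CPM in cKO TAC 7 d and to 8139, 6425 and 20532 CPM in ctrl TAC 3 d, so that ctrl TAC 3 d replicate 3 alone lay above the range of the others. Col1a1, the main chain of type I collagen, was at 554, 547 and 306 CPM in cKO TAC 7 d and at 682, 535 and 3695 CPM in ctrl TAC 3 d (log2 fold change -1.80 ± 0.53 SE, adjusted p = 0.0650), and at -0.53 (adjusted p = 0.428) without both libraries.

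Of 33 matricellular, cross-linking and protease genes, 23 rose late and 28 early (medians 2.15 late and 2.37 early), and edgeR called 0 directly (5 at an unadjusted p under 0.05, 1 with DESeq2 and 3 with limma voom). The direct median was -0.42, or -0.02 without the 2 libraries. Tgfb1, the growth factor that drives matrix synthesis, had the lowest p of that list at -0.50 (adjusted p = 0.0690). Postn, a matrix protein of activated fibroblasts, differed by -0.94 (adjusted p = 0.397), and between ctrl TAC 7 d and ctrl TAC 3 d it fell (-2.89, adjusted p = 0.00921). Of 10 markers of activated fibroblasts 5 rose late and 7 early, with a direct median of -0.82 (-0.20 without the 2 libraries) and 0 called by edgeR (5 at an unadjusted p under 0.05, 0 with DESeq2 and 1 with limma voom). Their summed level was 1056, 1654 and 651 CPM in cKO TAC 7 d and 1196, 928 and 4121 CPM in ctrl TAC 3 d. In bulk hearts a change in the number of such cells and a change in RNA per cell cannot be told apart.

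**Figure D3:**
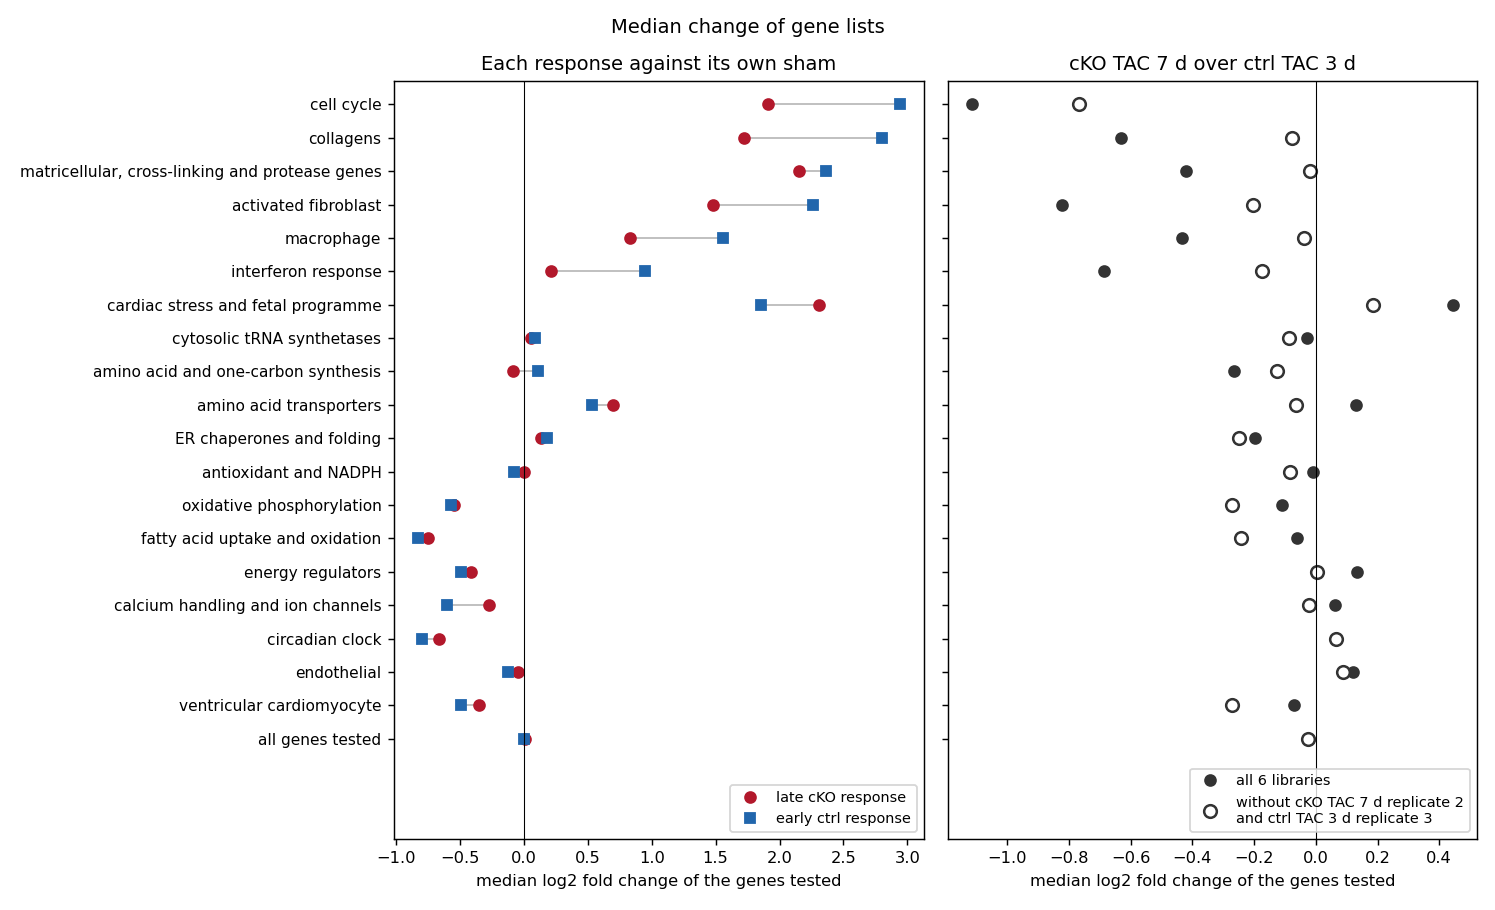
Median log2 fold change of the tested members of 19 gene lists and of all genes tested, on the left in the late cKO response (circles) and the early ctrl response (squares), on the right in cKO TAC 7 d over ctrl TAC 3 d with all 6 libraries (filled) and without the 2 libraries that stand apart (open). The collagen median lies at 1.72 late and 2.80 early, and in the direct contrast at -0.63 with all libraries and -0.08 without the 2.

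Medians of immune lists also moved when the 2 libraries were left out. Of 20 macrophage markers 11 rose late and 15 early. The late count was 1 to 7 with single libraries left out, 1 without cKO sham replicate 3 and 3 without cKO sham replicate 2 or cKO TAC 7 d replicate 2, and 13 without both libraries that stand apart. Directly, edgeR called 0 (6 at an unadjusted p under 0.05, 2 with DESeq2 and 0 with limma voom). The direct median was -0.43, or -0.04 without the 2 libraries, with 13 then inside 2-fold. The macrophage markers summed to 651, 735 and 676 CPM in cKO TAC 7 d and to 712, 604 and 1477 CPM in ctrl TAC 3 d. Of 18 interferon response genes edgeR called 0 late (3 at an unadjusted p under 0.05, 0 with DESeq2 and 3 with limma voom), at a median of 0.21, and 9 rose early, at a median of 0.95, with 4 called without ctrl TAC 3 d replicate 3, 5 without ctrl sham replicate 1 and 5 without both libraries that stand apart. In the direct contrast 1 fell, Bst2, a membrane tether of viruses, at -1.07 (adjusted p = 0.0483), and the list median was -0.69, or -0.17 without the 2 libraries. Bst2 was then at -0.64 (adjusted p = 0.295), beside adjusted p-values of 1.89e-06 to 0.530 over 16 alternative settings. Neutrophil markers summed to 3.75, 4.90 and 4.55 CPM in cKO TAC 7 d and 3.75, 3.76 and 10.5 CPM in ctrl TAC 3 d, and lymphocyte markers to 2.53, 1.69 and 3.71 CPM in cKO TAC 7 d and 2.22, 3.27 and 3.87 CPM in ctrl TAC 3 d.

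**Figure D4:**
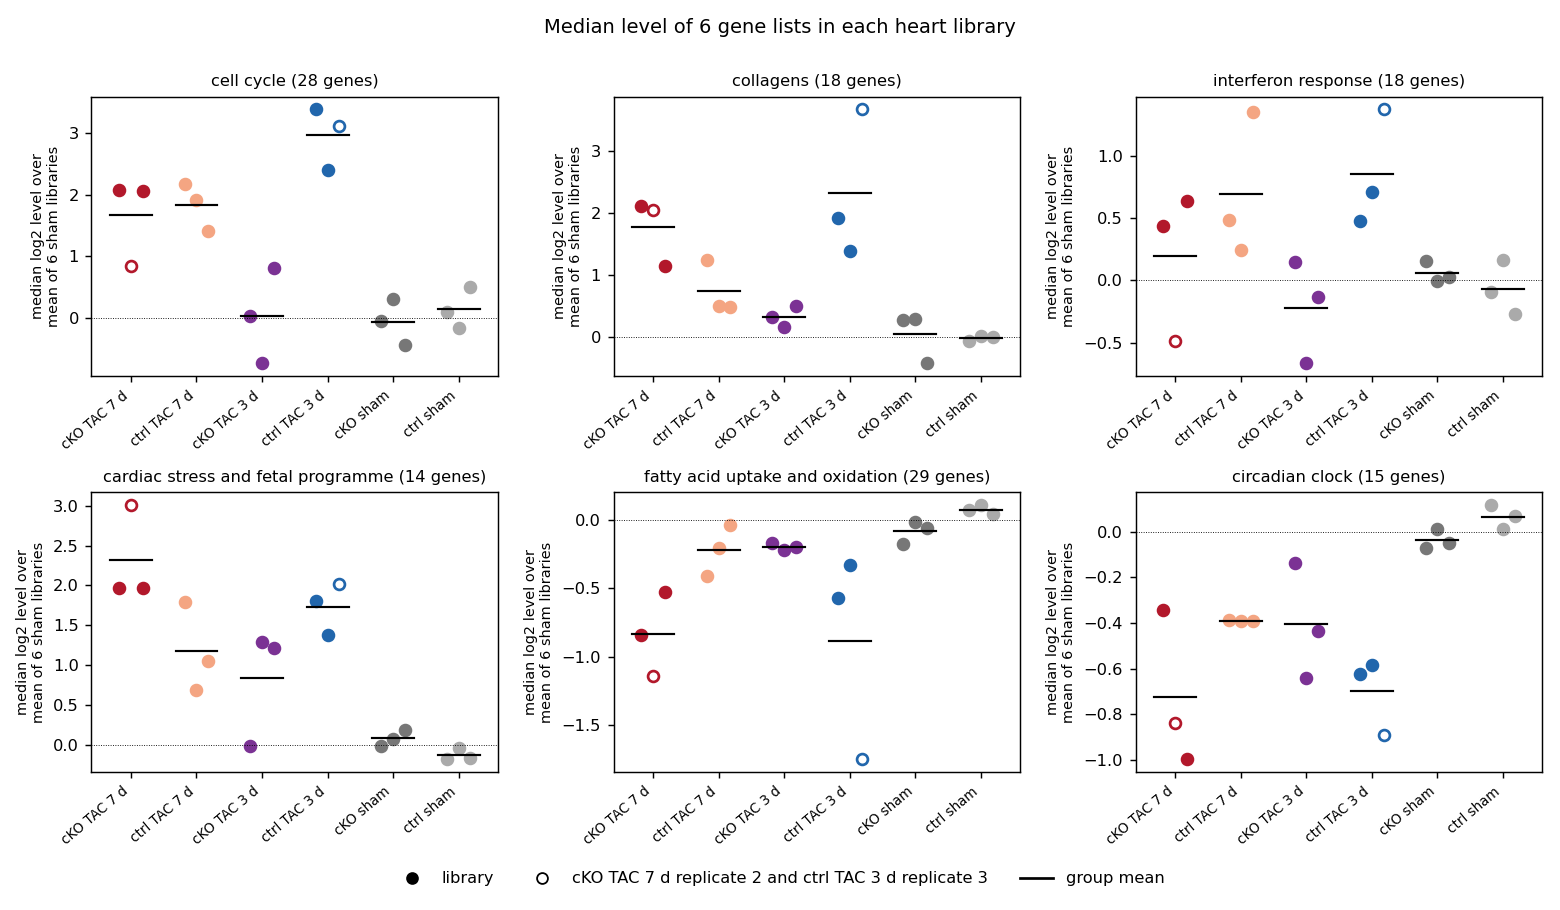
Median log2 level of 6 gene lists in each heart library relative to the mean of the 6 sham libraries (vertical axes), 1 point a library, with a line at the group mean and open points for the 2 libraries that stand apart, 1 of cKO TAC 7 d and 1 of ctrl TAC 3 d. Cell cycle genes stand at 2.09, 0.85 and 2.06 in cKO TAC 7 d and 3.39, 2.40 and 3.12 in ctrl TAC 3 d, and collagens at 2.11, 2.04 and 1.15 in cKO TAC 7 d and 1.92, 1.38 and 3.66 in ctrl TAC 3 d.

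Many metabolic genes fell in both states. Of 29 tested genes of oxidative phosphorylation, the respiratory chain and ATP synthase, 18 fell late and 18 fell early, with medians of -0.55 late and -0.57 early. The late count rests on the full set of libraries, since 2 or 3 were called without any of 5 single libraries, 22 without cKO TAC 7 d replicate 3 and 26 without both libraries that stand apart. The early count was 10 without ctrl TAC 3 d replicate 3, ctrl sham replicate 1 or ctrl sham replicate 2, and 12 without both. In the direct contrast edgeR called 0 (1 at an unadjusted p under 0.05, 0 with DESeq2 and 8 with limma voom), the median was -0.11, and 28 of 29 lay inside 2-fold. Of 29 genes of fatty acid uptake and oxidation, 19 fell late (median -0.75) and 21 early (median -0.83). The late count was 3 without cKO TAC 7 d replicate 2, 6 to 11 without replicate 1 of that group or any of the cKO shams, and 20 without both libraries that stand apart, and the early count was 13 to 25 with single libraries left out, lowest without ctrl sham replicate 2. Directly, edgeR called 0 (2 at an unadjusted p under 0.05, 0 with DESeq2 and 1 with limma voom) and 25 lay inside 2-fold. Acot1, an acyl-CoA thioesterase that responds to Ppara, fell in both, at -2.17 (adjusted p = 0.00176) late and -1.60 (adjusted p = 0.00256) early, and differed directly by -0.94 (adjusted p = 0.146). Of 19 genes of glucose uptake and glycolysis 18 lay inside 2-fold, and all 20 ribosomal protein genes did so as well. The lists' median levels hid a wide spread in ctrl TAC 3 d, where fatty acid genes stood at -0.57, -0.33 and -1.75 relative to sham, against -0.84, -1.14 and -0.53 in cKO TAC 7 d.

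Calls among stress defence genes stand beside 4.52% of all genes called. Of 31 antioxidant and NADPH genes 2 were called. Cat, the catalase that breaks down hydrogen peroxide, was higher at 0.51 (adjusted p = 0.00880), and Txn1, thioredoxin, was lower at -0.37 (adjusted p = 0.0476), and 29 lay inside 2-fold. Neither was called without the 2 libraries, and with single libraries left out Cat was kept in 3 of 6 fits and Txn1 in 2. Of 20 genes of the endoplasmic reticulum 5 were called. One rose, Sel1l, of the degradation complex, at 0.41 (adjusted p = 0.00865), and 4 fell. The falls were Manf, a secreted folding stress protein, at -0.64 (adjusted p = 0.0341), Prdx4, a peroxiredoxin of the endoplasmic reticulum, at -0.54 (adjusted p = 0.0353), Pdia6, a disulfide isomerase, at -0.46, and Syvn1, the ubiquitin ligase that works with Sel1l, at -0.43. With single libraries left out Sel1l was kept in 4 of 6 fits, Manf in 3 and Prdx4 in 1. The 4 falls were lost without the 2 libraries, and all 5 calls with the length trend removed. Manf shares its place with Dcaf1 and Rbm15b in the table. Htra2, a mitochondrial protease, fell by 0.55 (adjusted p = 0.0401), a call lost without 4 of the 6 single libraries (highest such adjusted p = 0.127, without cKO TAC 7 d replicate 3) and kept in 8 of 16 alternative settings.

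Of 13 p53 targets, Mdm2, the ligase that removes p53, was higher at 0.40 (adjusted p = 0.0101), and Bax, of the mitochondrial death pathway, was lower at -0.47 (adjusted p = 0.0317) and kept in 3 of 6 fits without a single library. Of 15 clock genes edgeR called 0 directly (2 at an unadjusted p under 0.05, 0 with DESeq2 and 0 with limma voom), 3 were called higher and 6 lower late, and 8 lower early. The 3 late rises were lost without 5 of the 6 single libraries, all but cKO TAC 7 d replicate 1, and without both libraries that stand apart. Vwf, the endothelial clotting factor, was the called member of 12 endothelial genes at 1.11 (adjusted p = 0.0313), and at 0.66 (adjusted p = 0.172) without the 2 libraries, beside adjusted p-values of 2.15e-07 to 0.472 over 16 alternative settings. Cytokine, resting fibroblast, pericyte, immediate early, atrial, epicardial, adipocyte, erythroid and sex-linked lists held no member called directly by edgeR. At most 2 members of a list had an unadjusted p under 0.05, and at most 3 were called by DESeq2 or limma voom. Only 1 epicardial, 1 adipocyte and 4 atrial genes had enough counts to be tested, too few to describe those cells. The adipocyte gene reached an unadjusted p under 0.05.

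The remaining large changes of single genes were these. Lcn2, an iron-binding protein of injured tissue, was at 5.67, 38.1 and 11.0 CPM in cKO TAC 7 d and at 1.48, 2.51 and 1.91 CPM in ctrl TAC 3 d (log2 fold change 3.21 ± 0.88 SE, adjusted p = 0.0470), and Slc9a3, a sodium-proton exchanger, was at 14.4, 6.54 and 19.1 CPM in cKO TAC 7 d and at 3.13, 1.47 and 2.87 CPM in ctrl TAC 3 d (log2 fold change 2.42 ± 0.64 SE, adjusted p = 0.0400). Both calls were lost without 5 of the 6 single libraries, with adjusted p-values of 3.76e-11 to 0.331 over 16 alternative settings for Lcn2 and 3.47e-08 to 0.137 over 16 alternative settings for Slc9a3. Astn2, a protein of membrane trafficking described in neurons, was at 1.49, 1.17 and 1.26 CPM in cKO TAC 7 d and at 6.14, 4.96 and 2.34 CPM in ctrl TAC 3 d (log2 fold change -1.77 ± 0.34 SE, adjusted p = 0.00793). Ptgfr, the receptor of prostaglandin F, was at 1.05, 1.23 and 1.08 CPM in cKO TAC 7 d and at 2.50, 3.38 and 4.40 CPM in ctrl TAC 3 d (log2 fold change -1.62 ± 0.34 SE, adjusted p = 0.0126), a call kept in 5 of 6 fits without a single library. Myl1, a myosin light chain of skeletal muscle, was at 36.9, 28.8 and 19.0 CPM in cKO TAC 7 d and at 57.4, 57.3 and 146 CPM in ctrl TAC 3 d (log2 fold change -1.62 ± 0.36 SE, adjusted p = 0.0174), and at -1.06 (adjusted p = 0.0978) without both libraries. Skeletal muscle markers summed to 5.29, 7.18 and 2.03 CPM in cKO TAC 7 d and to 1.99, 2.13 and 23.4 CPM in ctrl TAC 3 d, and their part in the Myl1 result was not tested.

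The direct contrast followed gene length. Across genes, Spearman's correlation of the log2 fold change with length was 0.28 for cKO TAC 7 d over ctrl TAC 3 d, 0.20 in the late cKO response and 0.00 in the early ctrl response, given as descriptions. It was 0.19 for ctrl TAC 7 d over ctrl TAC 3 d and 0.30 for cKO TAC 7 d over cKO TAC 3 d. For cKO over ctrl it was 0.03 at 7 days and -0.10 at 3 days. Single libraries' deviations from the mean correlated with length at 0.10 to 0.25 in ctrl TAC 7 d and 0.15 to 0.21 in cKO TAC 7 d. The range was -0.22 to 0.01 in ctrl TAC 3 d, -0.30 to -0.17 in cKO TAC 3 d, -0.15 to 0.01 in ctrl sham and -0.09 to -0.08 in cKO sham. The genes called higher had a median length of 8878 bases and those called lower 2762 bases, beside 4043 for all genes. Of 10 equal groups of genes by length, the longest had a median fold of 0.20, with 198 called higher and 6 lower, and the shortest one of -0.17, with 9 called higher and 35 lower. With the trend removed, 292 genes were called, 165 higher and 127 lower, and 177 without the 2 libraries as well, 94 higher and 83 lower. Atf4, Hipk2, Klhdc7a, Ppara and Cacna1i were called in every one of these fits. The part of RNA quality or library preparation in the trend was not tested.

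**Figure D5:**
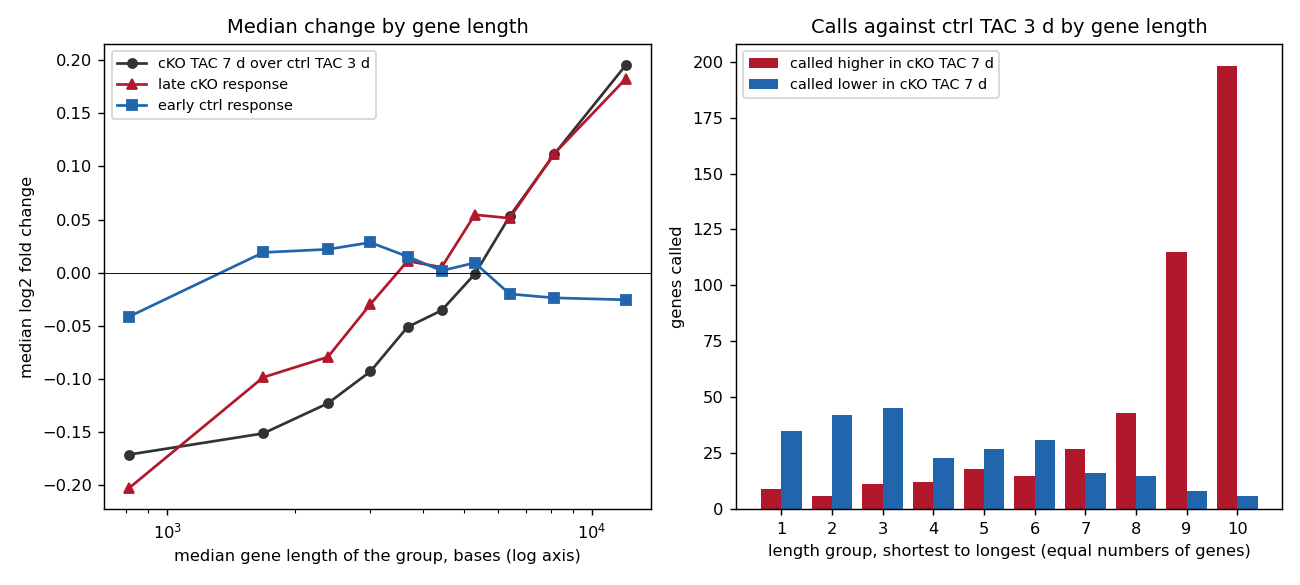
Left, median log2 fold change in 10 equal groups of the tested genes by length (horizontal axis, log scale, median length of each group in bases) for cKO TAC 7 d over ctrl TAC 3 d (circles), the late cKO response (triangles) and the early ctrl response (squares). Right, genes called higher and lower in cKO TAC 7 d relative to ctrl TAC 3 d in each length group, from 9 higher and 35 lower among the shortest to 198 higher and 6 lower among the longest.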

How the data were processed

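Read counts per Ensembl gene of the 18 mouse hearts were deposited by the authors as whole numbers, not normalized, with a gene length per the file headers. Bowtie 0.12.2 and mm9 are named in the submitters' processing notes without a role. How reads were counted, and whether by strand, is not given in the sources used here. Gene positions in the table are those of GRCm38. Per the labels' protocols, libraries were made with a TruSeq RNA kit from total RNA. Totals of 15106975 to 18112798 counts set the counting precision.

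Counts were tested in R 4.3.3 with edgeR 4.0.16: filterByExpr by group left 15535 genes, TMM scaled the libraries, and 1 quasi-likelihood model of the 6 groups was fitted to all 18, with two-sided Benjamini-Hochberg adjusted p-values over all genes and calls under 0.05. A 95% interval is the fold change ± the t quantile times its SE, and a gene is inside 2-fold when the interval lies within -1 to 1 log2. DESeq2 1.42.0 and limma 3.58.1 were alternatives, as were RLE factors, total counts, no filter, a fit of only the groups compared, a length correction, a replicate block, and libraries left out. The length correction was a lowess (span 0.5) of each library's log2 deviation from the mean of all libraries on log length, entered as an offset. Leaving out both libraries together with the length correction was added after the data were seen. Levels are TMM-scaled CPM, and list levels use log2 CPM with a prior count of 2. On simulated data the recovery was 74% at a 2-fold change and 42% at 1.5-fold. These rates hold for the spread of the simulated counts and are not the power of the direct contrast. Between replicates, chi-square per degree of freedom was 141 and 164 for pairs with ctrl TAC 3 d replicate 3. It was 46.4 and 67.4 for pairs with cKO TAC 7 d replicate 2. The remaining pair stood at 27.9 in ctrl TAC 3 d and 15.5 in cKO TAC 7 d, and sham pairs at 7.6 to 19.7.

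The 37 gene lists (571 genes, 527 tested) and their members were chosen with earlier results of these data known. Named genes are Atf4 and its neighbours, and the 8 largest called rises and falls among genes averaging 1 log2 CPM or more. In the direct contrast these rises and falls were taken only from genes whose groups did not overlap. Their lack of overlap was thus set by the choice. Up to 3 called members of each list, or the one with the lowest p, were named as well. Other list members were named with their values known. The rat cultures of the series were not used here. Same-named rows of the table (102 symbols) were kept apart by gene ID. Results of a few genes are not reported here.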

Additional observations from a re-analysis of the deposited data

Results flagged for a closer look

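The 11 genes at which the late cKO response and the early ctrl response differed by the test of the difference itself all had the larger value in the late cKO response. On the log2 scale the differences included 3.48 for Hipk2, 1.54 for Sh3rf2, 1.05 for Sptb, 0.95 for Ptpn14, 0.80 for Hectd4, 0.79 for Ubr4, 0.78 for Hif1an, 0.76 for Usp54, 0.75 for Rad54l2 and 0.69 for Pdk1. With the length trend removed they were 3.34 for Hipk2 and 0.51 to 1.51 for the other genes named here, and the lowest adjusted p was 0.0514. Usp54 and Pdk1 were not called late (0.01 and 0.18) and fell early (-0.74 and -0.51), whereas Ubr4, Hif1an and Rad54l2 rose late (0.75, 0.65 and 0.64) and were not called early (-0.04, -0.13 and -0.11).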

How the results depend on the processing

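In the direct contrast 702 genes were called; the count was 1182 with DESeq2, 2038 with limma voom and library weights, 1184 with no filter, 6 with only the groups compared, 292 with the length trend removed, 396 without both libraries, 177 with both of the last changes, and 261 to 1038 with single libraries left out. In the early ctrl response 4225 were called, 2333 with only the groups compared, 2710 without both libraries, 2753 with the length trend removed as well, and 2310 to 4936 with single libraries left out. In the late cKO response 3380 were called, 5400 with limma voom, 2980 without both libraries, and 1353 to 2900 with single libraries left out. The difference of responses called 11 genes, 127 with DESeq2, 319 with limma voom, 7 with RLE factors, 4 with total counts, 131 with no filter, 5 with only the groups compared, 0 with the length trend removed (edgeR; 1198 at an unadjusted p under 0.05), 5 without both libraries, 2 with both changes, and 0 to 15 with single libraries left out. For cKO sham over ctrl sham 3 genes were called, 16 with DESeq2, 31 with limma voom, 67 with no filter, 31 with only the groups compared, 13 without both libraries, 14 with both changes, and 0 to 2 with single libraries left out (412 to 583 at an unadjusted p under 0.05 where edgeR called 0). The 2020 genes called alike in both responses were 3263 with limma voom.

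Same-numbered libraries of the 2 groups had correlations of deviations of 0.09, -0.26 and -0.39. The labels do not say whether the numbers pair the samples. Deviations from means of 3 libraries depend on each other, so this check cannot decide it. With the replicate block 635 genes were called directly, 6 in the difference of responses and 0 between shams (edgeR; 533 at an unadjusted p under 0.05). With total counts in place of TMM the median of all genes was 0.23 in the early and 0.14 in the late response, beside -0.001 and 0.01 with TMM. No result changed direction with its call in any setting. The depth limits genes of a few CPM, and 3 libraries a group limit all of them.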
